A study of Mus musculus with 6 samples.

Results

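Of 30 reported targets of miR-155 with enough counts for a test, 7 were followed in mouse CD4+ T cells. These were Socs1, Ifngr1, Peli1, Tab2, Ikbke, Fadd and Maf. They are 7 of 8308 tested accessions and of 13177 RefSeq accessions in the deposited count table, with 1 accession for each gene. They were chosen from the literature and for having usable counts, so that their level is part of how they were chosen. The stated rule does not say what set them apart from the other tested targets. Their difference between groups was not part of the stated rule, but earlier results of these libraries were known when they were chosen. The 6 libraries fell into 2 groups of 3. One held cells collected 8 h after transfection with a synthetic miR-155 oligonucleotide, and the other was labelled as control at 0 h. The treatment label of both groups names the oligonucleotide, and no sample at 8 h without it was analysed here, so time and exposure cannot be told apart. No strain, age, sex or genotype is given. Cells were enriched from mouse with a CD4+ isolation kit and magnetic beads, and the descriptions of the 8 h samples read CD5+ where their source labels read CD4+. Separate animals or cultures are not named for the replicates, so a p-value covers the spread among these libraries, possibly technical, and no more.

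A microRNA pairs through its seed, the bases 2 to 8 from its 5′ end, with matching sites in the 3' untranslated region (UTR) of messenger RNAs, and the Argonaute complex that it guides lowers their translation and stability. miR-155 is made from the Mir155hg transcript, is induced when lymphocytes and myeloid cells are activated, and is known in CD4+ T cells for effects on helper lineage choice and on regulatory T cell fitness. Its reported targets include brakes on cytokine signalling, parts of the Toll-like receptor and death receptor pathways, and transcription factors. Both mature strands are shown as RefSeq gives them (GRCm38.p6), 5′ to 3′, because every site described here is read against them, with the seed in capitals. The guide strand lies at chr16:84714143-84714165 and the passenger strand at chr16:84714182-84714202, both on the + strand.
mmu-miR-155-5p: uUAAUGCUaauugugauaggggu
mmu-miR-155-3p: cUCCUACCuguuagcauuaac

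Of the 7 genes, 5 held a match to the miR-155-5p seed of at least 7 bases in their longest annotated 3' UTR (GENCODE M21, GRCm38), and Fadd and Maf held none. Motifs were searched on the transcript strand only, and each position was given 1 type. An 8mer is AGCATTA followed by A, a 7mer-m8 is AGCATTA without that A, a 7mer-A1 is GCATTAA without the leading A, and a 6mer is GCATTA alone. Of 7941 tested accessions with a 3' UTR to search, 10.9% held at least 1 of the first 3 types, 7.18% an 8mer or 7mer-m8 and 2.72% an 8mer. Among the 4771 of them whose 3' UTR was as long as those of the 7 genes, 541 to 4316 bases, the share was 12.8%. Seed matches are part of how targets come to be reported, so the count of 5 is a description of the genes and not a result of these libraries. The sites that the comparison turns on are given with the stretch before them, written as DNA 5′ to 3′ in the sense of the transcript and ending at the base opposite position 1 of the microRNA. Capitals mark the matching bases.
Socs1 8mer: ccggctgccgctgtgccgcAGCATTAA
Tab2 8mer: aaagcaatgccataaggtagaaAGCATTAA
Ifngr1 7mer-m8: gcttgtacatacttttttatggAGCATTAc
Ikbke 7mer-m8: attggccattggccaacaaactAGCATTAc
Peli1 7mer-A1: aagtttctctgctctggtcatttGCATTAA

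Coordinates are those of the stretch as printed. The Socs1 match began at base 20 of a 3' UTR of 1993 bases, close to the stop codon (chr16:10784206-10784232, − strand). That of Tab2 began at base 737 of 1782 (chr10:7906691-7906720, − strand), and that of Ifngr1 at base 498 of 541 (chr10:19610164-19610193, + strand). The match of Ikbke began at base 146 of 708 (chr1:131255152-131255181, − strand) and that of Peli1 at base 99 of 1800 (chr11:21148599-21148628, + strand). A and T made up 71.7% of the bases up to 30 on each side of the Ifngr1 site, 70.0% around that of Peli1, 60.0% around that of Tab2, 50.0% around that of Ikbke and 44.9% around that of Socs1. Between 0 and 1 of the 4 bases opposite positions 13 to 16 of the microRNA could pair at these sites when aligned without a gap. Peli1 held 1 further 6mer and Maf held 2, at bases 991 and 2091 of 4316, so Maf had only 6-base matches. The 3' UTRs searched for Socs1 and Maf run past the RefSeq gene ends given below, although their miR-155-5p matches lie within those ends. The search found no miR-155-5p match of any type in the 3211 bases of Fadd. For the passenger strand, whose seed pairs with GGTAGGA, the same types of match occurred once each in Fadd and Maf, against 11.2% of tested accessions. No match says only that these letters are not in the annotated 3' UTR.

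**Figure D1:**
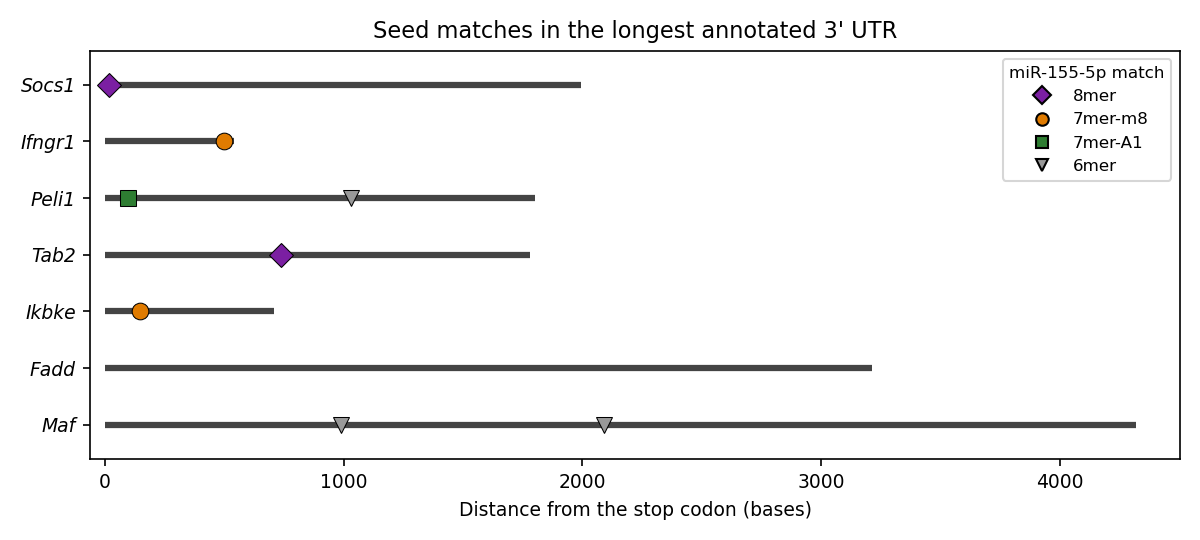
Longest annotated 3' UTR of each gene as a bar from the stop codon (x axis, bases), with every miR-155-5p match as a symbol by type. The Socs1 match starts at base 20 after the stop codon and that of Ifngr1 close to the end of its 541 bases, while Fadd holds none and Maf only 6mers.

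Library totals ranged from 6243803 to 13675127 counts at 8 h and from 4564010 to 12303358 counts in controls. The 100 most abundant accessions took 57.7% to 68.6% of each library. All 10 markers listed for CD4 T cells had counts in every library, at 0.542% to 1.38% of counts at 8 h and 0.297% to 2.08% in controls. Cd4 itself had only 5 to 10 counts and Cd247 3 to 16, so the list says little on CD4 against other T cells. Control counts of Lck were 171, 226 and 162085 and those of Cd3d 1338, 73937 and 13051, so single genes weighed heavily in these shares. Gapdh had 1 to 11 counts and Actb 1 to 5, values so low for abundant transcripts that what a row counts is uncertain, a limit on every value given here. Markers of natural killer cells took 0.00615% to 0.0165% of counts at 8 h and 0.0257% to 0.244% in controls. Those of myeloid cells took 0.000657% to 0.00128% at 8 h and 0.00167% to 0.0053% in controls, with 4 of 7 at 0 in at least 1 library. Those of erythroid cells, 2 of 5 at 0 somewhere, took 0.000561% to 0.00216% at 8 h and 0.00259% to 0.00965% in controls. The ranges of these 3 lists did not overlap between groups, as was so for 10.8% of single tested accessions. Counts of single markers ran from 0 to 18478 in the natural killer list, 0 to 331 in the myeloid and 0 to 606 in the erythroid list. A share can thus rest on 1 marker in 1 library and does not measure how many such cells were present. The part of these 3 lists in the values of the 7 genes was not tested. B cell markers (0.00392% to 0.00983% at 8 h, 0.0022% to 0.0073% in controls) and CD8 T cell markers (0.00127% to 0.00606% at 8 h, 0.000833% to 0.00342% in controls) overlapped. Neither Mir155 nor Mir155hg was matched in the table, so delivery of miR-155 could not be read from these libraries. In bulk RNA, fewer cells of a type and less RNA per cell cannot be told apart.

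The comparison asked whether the reported targets had lower RNA levels after transfer of miR-155. None of the 7 genes passed the test, in either direction. Peli1, Ifngr1, Maf and Tab2 had lower fitted values at 8 h and Ikbke, Socs1 and Fadd higher ones. Across all genes edgeR's quasi-likelihood test called 0 of 8308 accessions (0%) at an adjusted p under 0.05, with 709 (8.53%) at an unadjusted p under 0.05 (4.51% higher and 4.02% lower at 8 h), of which none was one of the 7. The lowest edgeR adjusted p over all accessions was 0.316, and the 7 fold changes had SEs of 1.31 to 1.93 log2 units. No call among the 7 is therefore no evidence that their levels stayed the same. The DESeq2 Wald test called 399 (4.8%) and gave no adjusted p for 1720. It called none of the 7 and gave Peli1 the lowest unadjusted p among them (0.0239, DESeq2 adjusted p = 0.168, with 0.168 to 0.998 over all alternatives). The 8 h and control values overlapped for every one of the 7 genes. Over all tested accessions, 10.8% had groups that did not overlap (5.72% higher and 5.08% lower at 8 h). At that share, overlap in all of only 7 genes does not set them apart from other genes.

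Socs1 and Ifngr1 act on the interferon gamma pathway from opposite sides. Socs1 encodes a suppressor of cytokine signalling that binds Janus kinases and is induced by cytokines (chromosome 16, 10783808 to 10785536, GRCm38). It had 96.5, 487 and 149 CPM (read counts relative to the TMM-scaled library size) in 8 h replicates 1 to 3, against 10.2, 52.1 and 227 CPM in controls 1 to 3. The 8 h library 2 stood highest and control 1 lowest, and control 3 lay above both of the other 8 h libraries. Its counts were 822, 6465 and 1027 at 8 h and 57, 262 and 2493 in controls. Counting error was small beside this spread, with exact Poisson 95% intervals of 475 to 499 CPM for the highest library and 7.72 to 13.2 CPM for the lowest, which cover counting error only. The mean was 244 ± 212 CPM at 8 h and 96.6 ± 115 CPM in controls (SD, n = 3 each). The fitted log2 fold change of Socs1 was 1.34 ± 1.93 (SE; edgeR adjusted p = 0.877). Leaving out 8 h replicate 2 gave 0.32, and leaving out control replicate 3 gave 3.01.

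Ifngr1, the ligand-binding chain of the interferon gamma receptor (chromosome 10, 19591949 to 19610229), had 10.3, 19.2 and 94.6 CPM at 8 h, against 35.4, 6.36 and 521 CPM in controls. Control 3 alone, with 5716 counts, set the control mean, and control 2, with 32 counts, was the lowest of all libraries. The ratio of highest to lowest library was 9.16 at 8 h and 81.9 in controls, the control ratio being the widest among the 7 genes. Means were 41.4 ± 46.3 CPM at 8 h and 188 ± 289 CPM in controls (SD, n = 3 each). The log2 fold change of -2.18 ± 1.91 (SE; edgeR adjusted p = 0.769) turned to 1.0 without control replicate 3, and leaving out 8 h replicate 3 gave -3.66. The direction for Ifngr1 thus rested on 1 control library. limma-voom gave -0.65 and the fit with the replicate block -1.02.

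Of the 7 genes, 3 belong to the signalling chain that leads from Toll-like and interleukin receptors to NF-kB and interferon regulatory factors. Peli1 encodes Pellino 1, a ubiquitin ligase that acts with IRAK kinases and is known as a negative regulator of T cell activation (chromosome 11, 21091283 to 21150327). It had 1.88, 0.828 and 0.869 CPM at 8 h, against 6.44, 1.19 and 11.9 CPM in controls, from 16, 11 and 6 counts against 36, 6 and 130. Controls 1 and 3 stood above all 8 h libraries, but control 2 lay among the 8 h values. Its Poisson interval of 0.438 to 2.60 CPM contained all 3 values of the 8 h group. Means were 1.19 ± 0.595 CPM at 8 h and 6.50 ± 5.33 CPM in controls (SD, n = 3 each). The log2 fold change was -2.44 ± 1.55 (SE; edgeR adjusted p = 0.659), the lowest among the 7 genes, and stayed between -2.94 and -1.65 without any 1 library. The 7mer-A1 given above was its only match of 7 bases.

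Tab2, an adaptor that links ubiquitin chains to the kinase TAK1 (chromosome 10, 7905648 to 7956255), was the gene with the least spread among the 7. Its mean CPM stood at percentile 11.4 of tested accessions and its fitted variation between libraries at 11.3. These 2 ranks lay close in all 7 genes, so its small spread cannot be told apart from its low level, although Maf, at percentile 10.9, spread more. Tab2 had 3.17, 1.51 and 2.03 CPM at 8 h, against 3.75, 3.58 and 2.10 CPM in controls. The counts were 27, 20 and 14 at 8 h and 21, 18 and 23 in controls, so raw counts were alike although the library totals were not. The groups overlapped through 8 h library 1 and control 3. The Poisson interval of the lowest library, 0.920 to 2.33 CPM in 8 h replicate 2, reached that of the highest, 2.32 to 5.74 CPM in control 1. Means were 2.23 ± 0.851 CPM at 8 h and 3.14 ± 0.910 CPM in controls (SD, n = 3 each). The fitted log2 fold change was -0.49 ± 1.31 (SE; edgeR adjusted p = 0.943), with -0.81 when 8 h replicate 1 was left out and -0.26 when 8 h replicate 2 was. Tab2 carried an 8mer, the longest match, as did Socs1, and a link of match type to fold change was not tested.

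Ikbke encodes IKK epsilon, a kinase of the interferon regulatory factor branch (chromosome 1, 131254600 to 131279601). It had 33.2, 64.0 and 13.9 CPM at 8 h, against 5.90, 12.5 and 19.1 CPM in controls. The 8 h libraries 1 and 2 stood above all controls, and 8 h library 3 lay between controls 2 and 3. Counts were 283, 850 and 96 at 8 h and 33, 63 and 209 in controls. The mean was 37.0 ± 25.3 CPM at 8 h and 12.5 ± 6.58 CPM in controls (SD, n = 3 each). The fitted log2 fold change was 1.57 ± 1.73 (SE; edgeR adjusted p = 0.829). This was the highest of the 7 fold changes, and it lay between 0.90 (8 h replicate 2 left out) and 2.04 (control replicate 3 left out).

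Fadd, the adaptor that joins death receptors such as Fas to caspase-8 (chromosome 7, 144578323 to 144582441), had 2.35, 3.46 and 21.6 CPM at 8 h, against 1.79, 8.15 and 7.66 CPM in controls. The 8 h library 3 was highest of all 6, and the 8 h libraries 1 and 2 lay within the range of the controls. Counts were 20, 46 and 149 at 8 h and 10, 41 and 84 in controls. Means were 9.13 ± 10.8 CPM at 8 h and 5.87 ± 3.54 CPM in controls (SD, n = 3 each). The log2 fold change of 0.63 ± 1.62 (SE; edgeR adjusted p = 0.938) turned to -0.98 without 8 h replicate 3, and was 0.19 in limma-voom and 0.23 with the replicate block.

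Maf encodes c-Maf, a transcription factor that promotes interleukin 4 in T helper 2 cells (chromosome 8, 115703253 to 115706894). It had 0.470, 3.01 and 0.725 CPM at 8 h, against 1.25, 2.39 and 7.84 CPM in controls. Counts were 4, 40 and 5 at 8 h and 7, 12 and 86 in controls. Control 3 was the highest library and 8 h libraries 1 and 3 the lowest, but 8 h library 2 lay above controls 1 and 2. The Poisson intervals of the 2 lowest libraries, 0.128 to 1.20 CPM and 0.235 to 1.69 CPM, overlapped that of control 1, 0.503 to 2.58 CPM. Means were 1.40 ± 1.40 CPM at 8 h and 3.83 ± 3.52 CPM in controls (SD, n = 3 each). The log2 fold change was -1.43 ± 1.32 (SE; edgeR adjusted p = 0.781). It was -0.31 with control replicate 3 left out and -2.68 with 8 h replicate 2 left out.

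**Figure D2:**
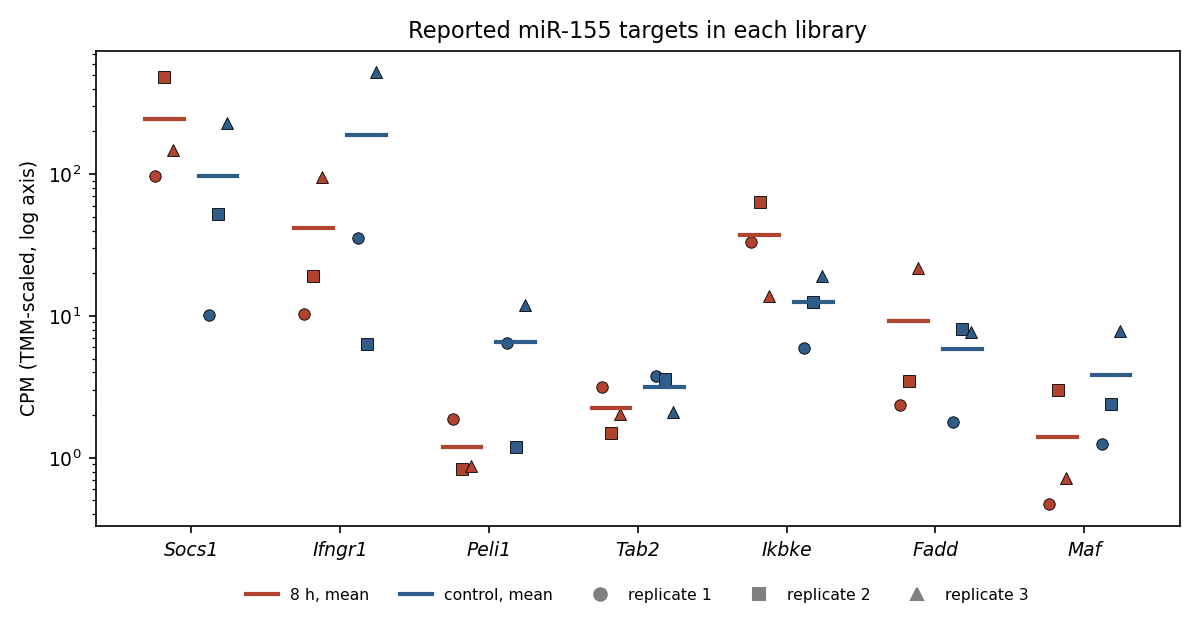
CPM of the 7 genes in each library on a log axis, with 8 h libraries in red to the left and controls in blue to the right, symbols for replicates and a line at each group mean. In every gene the red and blue points overlap, with Ifngr1 spread over the range from 6.36 to 521 CPM in controls.

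Per kilobase of transcript, the levels at 8 h ran in the order Socs1 (83.9 CPM per kb, mean of 3 libraries), Ifngr1 (19.6), Ikbke (11.4), Fadd (2.34), Tab2 (0.510), Peli1 (0.339) and Maf (0.220 CPM per kb). In controls Ifngr1 came first (88.9 CPM per kb), followed by Socs1 (33.2), Ikbke (3.84), Peli1 (1.85), Fadd (1.5), Tab2 (0.718) and Maf (0.602 CPM per kb). Neighbours in either order had overlapping ranges over the 3 libraries, so no 2 neighbours were separated beyond their spread. Each length was that of the longest GENCODE transcript linked to the counted RefSeq record. For Socs1 (2908 bases) and Maf (6360 bases) it exceeded the gene span given above. Their values per kilobase, and the last place of Maf, therefore depend on the length used. The place of Ifngr1 above Ikbke rested on 8 h library 3, control 1 and control 3, since in 8 h libraries 1 and 2 and in control 2 Ikbke was the higher of the pair.

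The 7 genes did not share 1 pattern over the libraries. Control 3 was the highest control for 5 of them (Socs1, Ifngr1, Peli1, Ikbke and Maf), while it was the highest control for 34.4% of all tested accessions. Control 1 was the lowest of all 6 libraries for Socs1, Ikbke and Fadd. Likeness was measured as the root-mean-square distance of log2 CPM over the 6 libraries, each gene centred on its own mean. On this scale Socs1 and Ikbke were the most alike of the 7 (1.01 log2 units), both being highest in 8 h library 2 and lowest in control 1. Socs1 and Peli1 were the least alike (2.53 log2 units). The median range of log2 CPM between libraries of 1 group was 3.21 at 8 h and 3.21 in controls over all tested accessions. Among the 7 genes the range at 8 h ran from 0.97 in Tab2 to 3.17 in Ifngr1, and in controls from 0.77 in Tab2 to 6.30 in Ifngr1. The median covers accessions of every level, while Tab2 stood at percentile 11.4 of mean CPM.

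**Figure D3:**
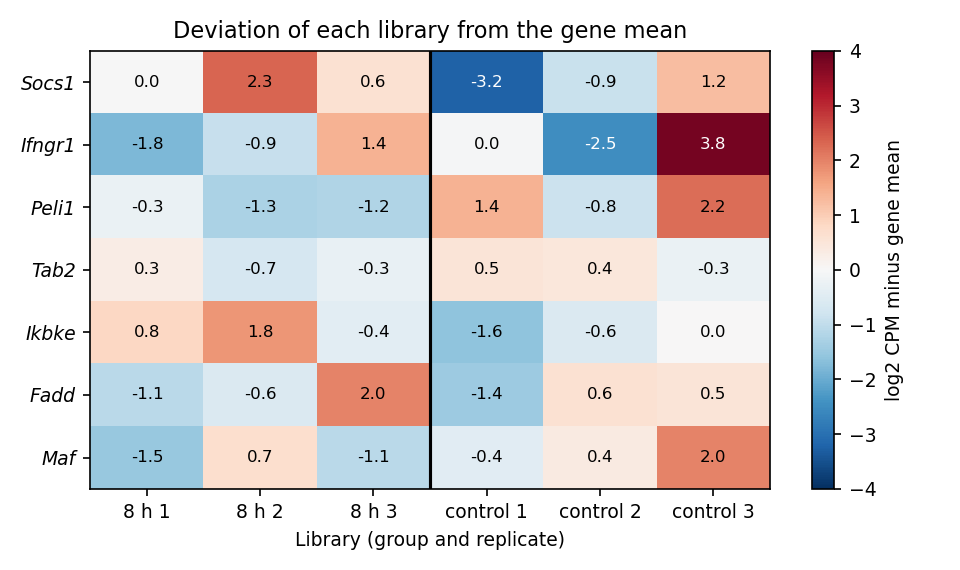
Log2 CPM of each gene in each library minus the mean of that gene over the 6 libraries, 8 h libraries left of the line and controls right of it, red for above and blue for below the mean. Ifngr1 in control 3 deviated most, by 3.83, followed by Socs1 in control 1, by -3.23, and Tab2 stayed within 0.68 of its mean.

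Among 8000 other named genes, compared over only 6 libraries, some lay closer to single members than any 2 members did to each other. With so many genes searched against so few pairs of members this was bound to occur, so the names below show no shared regulation. Nt5dc2 (distance 0.11) and Rcor3 (0.20) were closest to Ikbke, Acot1 (0.25) and Hemgn (0.26) to Socs1, and Rassf2 (0.21) and Ambp (0.37) to Ifngr1. Cep70 (0.26) and Cyp21a1 (0.28) were closest to Peli1, Cd72 (0.24) and Abhd3 (0.27) to Tab2, Gnpda1 (0.30) and Ins2 (0.36) to Fadd, and Dhrs7 (0.25) and Tdrd1 (0.39) to Maf. The median distance over all 8000 genes lay between 1.79 log2 units for Tab2 and 2.67 for Ifngr1. Some of the named genes had few counts, with 0 for Ambp in control 2 and 0 for Acot1 in control 1.

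**Figure D4:**
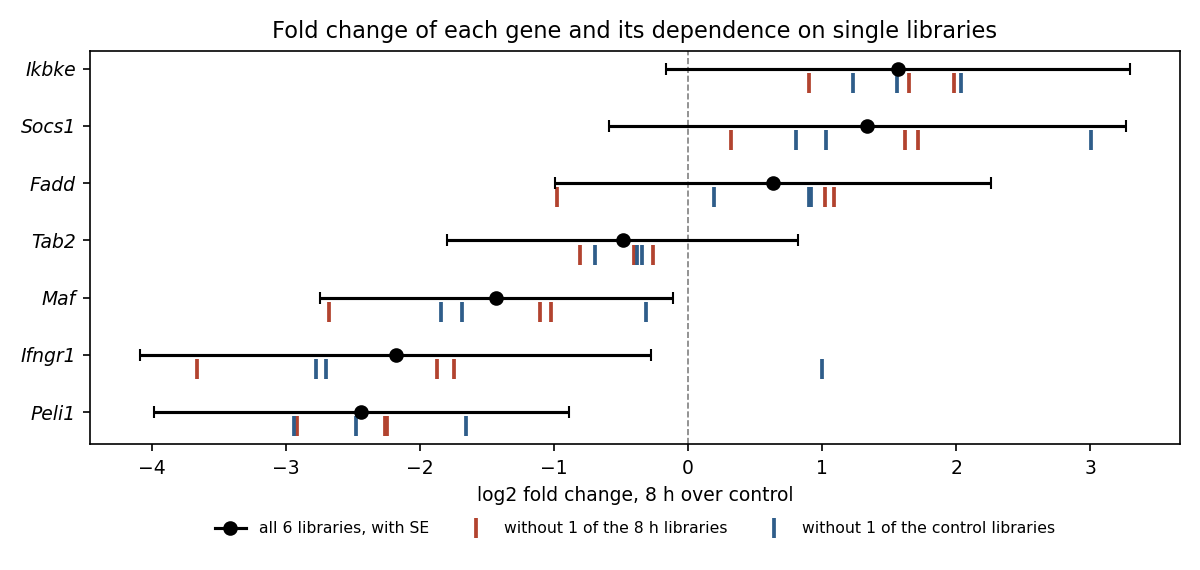
Fitted log2 fold change (8 h over control) of each gene with its SE as a black point and bar, and the same value without each single library as ticks, red for an 8 h library left out and blue for a control. Ticks of Ifngr1 and Fadd cross 0, at 1.0 and -0.98, and those of the other 5 genes stay on 1 side.

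The 7 genes are part of a list of 51 reported miR-155 targets drawn up from the literature, of which 48 were matched and 30 had enough counts for the test. None of the 30 passed edgeR's test in either direction, as none of all 8308 accessions did. An unadjusted edgeR p under 0.05 was found for 2 of the 30, against 8.53% of all tested accessions. DESeq2 called 1, Meis1, against 4.8% of all tested accessions, so neither count sets the list apart. Of the 30, 22 had lower and 8 higher fitted values at 8 h, with a median log2 fold change of -0.93. Over all 8308 accessions 4263 (51.3%) had higher values and the median was 0.06. The 19 list members with a seed match had 14 lower and 5 higher values and a median of -1.16, and the 11 without one had 8 lower and 3 higher and a median of -0.51. These lists were put together with earlier results known and carry no test. Over all tested accessions, the 862 with a seed match had 442 lower and 420 higher values and a median of -0.03. The 7079 without a seed match had 3425 lower and 3654 higher values and a median of 0.07. The median of the 30 was -0.21, -0.47 and -0.48 with control replicate 2, control replicate 3 and 8 h replicate 2 left out in turn, and 16, 18 and 19 of the 30 were then lower. Without control replicate 2 the list's 16 lower genes thus stood against 14 higher ones.

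Lowest in the list were Tspan14, a tetraspanin, and Meis1, a homeobox factor of blood progenitors. Tspan14 had 91, 51 and 71 counts at 8 h and 3369, 145 and 281 in controls, with no overlap in CPM (log2 fold change -4.72 ± 2.14 SE, edgeR adjusted p = 0.538). Meis1 had 9, 52 and 16 counts at 8 h and 964, 97 and 23 in controls (log2 fold change -4.72 ± 2.0 SE, edgeR adjusted p = 0.510). Highest were Ikbke and Msh6, a mismatch repair protein, with 6748, 1648 and 257 counts at 8 h and 23, 94 and 778 in controls (log2 fold change 3.34 ± 2.08 SE, edgeR adjusted p = 0.653). The counts of Tspan14 and Meis1 were thus highest in control 1, a library in which Socs1, Ikbke and Fadd were lowest. Of the tested targets Cbl, a ubiquitin ligase, and Tab2 had the fewest counts, with 57 and 123 in all 6 libraries. Ripk1 with 104 and Foxo3 with 71 counts were the most counted of those not tested, since too few of their libraries reached the filter.

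**Figure D5:**
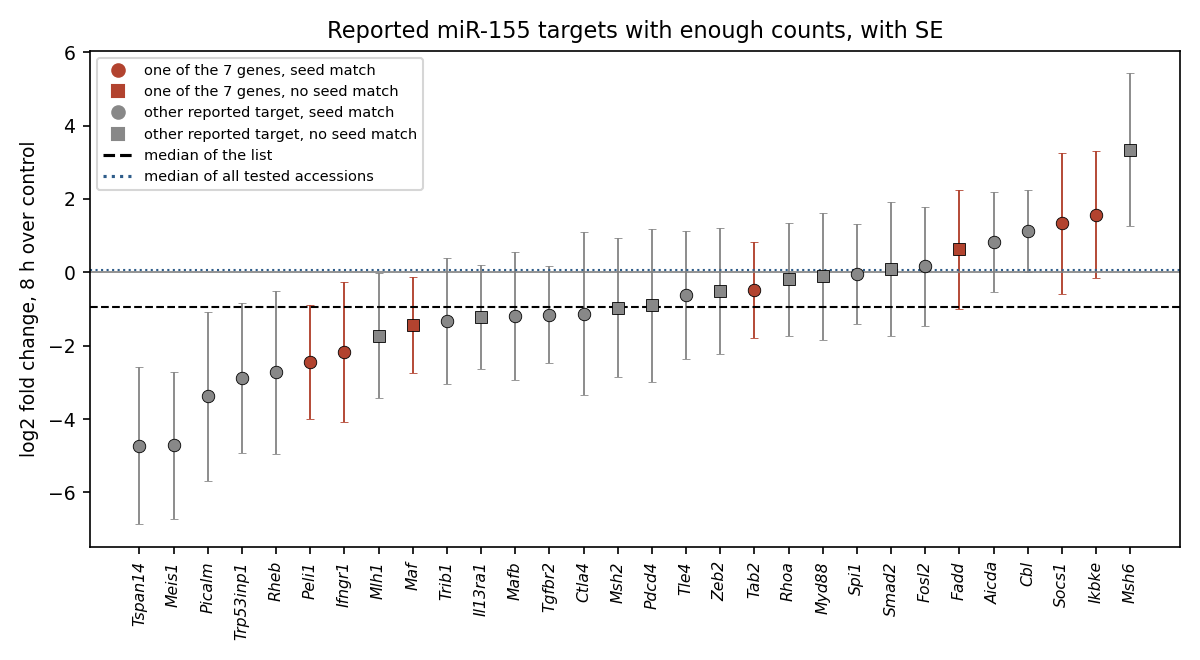
Fitted log2 fold change (8 h over control) with its SE for the 30 tested reported targets, from lowest to highest, the 7 genes in red and the others in grey, circles for genes with a seed match and squares for those without. The dashed line is the median of the list at -0.93 and the dotted line that of all tested accessions at 0.06, and the 7 genes lie from -2.44 to 1.57.

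Partners of the 7 genes gave no call in edgeR either, as no tested accession did. In the SOCS family 4 of 6 tested members had higher values at 8 h (median log2 fold change 1.0), from Socs2 (-1.08 ± 1.42 SE) and Socs4 (-0.55 ± 1.37 SE) to Cish (2.81 ± 1.91 SE) and Socs7 (4.04 ± 1.70 SE). Socs7 had 89, 40 and 67 counts at 8 h and 0, 2 and 10 in controls, with no overlap, and was called by DESeq2 (adjusted p = 0.0223) but not by edgeR (adjusted p = 0.510). Over all alternatives the adjusted p of Socs7, Ifng, Il21 and Meis1, the 4 listed genes that DESeq2 called, reached 0.998. Of the interferon gamma pathway 4 of 6 tested members had higher values (median 1.23). Its ends were Ifngr1 and the kinase Jak2 (-0.19 ± 1.58 SE) on one side and the transcription factor Irf1 (2.14 ± 2.14 SE) and the cytokine Ifng itself (4.41 ± 1.95 SE) on the other. Ifng, which DESeq2 called (adjusted p = 0.00437) and edgeR did not (adjusted p = 0.538), stood higher in all 8 h libraries than in any control, while its receptor chain Ifngr1 overlapped.

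Among Pellino, TAK1 and IKK signalling genes 4 of 10 tested members were higher and 6 lower (median -0.25). The TAK1 partners of Tab2 lay at both ends. Tab1 had 46, 13 and 26 counts at 8 h and 100, 39 and 276 in controls, with no overlap in CPM (log2 fold change -2.32 ± 1.74 SE, edgeR adjusted p = 0.718). Tab3 had 20, 803 and 10 counts at 8 h and 25, 27 and 17 in controls, with 8 h library 2 far above the others (log2 fold change 2.5 ± 1.79 SE, edgeR adjusted p = 0.703). Of the death receptor genes 2 of 6 were higher (median -0.15), with the receptor Fas (-1.93 ± 1.78 SE) and the kinase Ripk3 (-1.44 ± 1.75 SE) lowest and Fadd highest. Of the Maf family and cytokines linked to c-Maf, 5 of 9 were higher (median 0.21). Il21, a cytokine of follicular helper cells, had 11, 17 and 70 counts at 8 h and 30, 1230 and 300 in controls (-4.45 ± 1.99 SE). DESeq2 called it (adjusted p = 0.0383) and edgeR did not (adjusted p = 0.538). Nrl (-1.91 ± 1.72 SE) was the other low member, and Il10 (1.11 ± 1.59 SE) and Mafk, a small Maf protein (2.09 ± 1.76 SE), were the highest.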

How the data were processed

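Total RNA of mouse CD4+ T cells was made into TruSeq libraries and read from 1 end, per the labels' protocols and the design text. What the authors deposited is a single file of raw counts for RefSeq accessions in 6 columns, matched to samples by title. The submitters' processing notes name Bowtie, R 3.4.2 and GRCm38 without saying what each was used for. For the counting program, its use of strand and its handling of reads with several matches the sources used here give nothing, so genes with near-identical copies or overlapping neighbours are uncertain. Symbols came from RefSeq (12827 accessions) and GENCODE M21 (47), and 303 stayed unnamed.

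Counts were filtered with filterByExpr (8308 accessions kept), scaled by TMM and compared with edgeR 4.0.16 in R 4.3.3 (quasi-likelihood F test, robust, two-sided, group as the only term), with Benjamini-Hochberg adjustment over all tested accessions at 0.05. Each SE was the size of the log2 fold change divided by the root of its F statistic. CPM and log2 CPM (prior count 2) were computed from the counts as deposited. The script was also run on simulated counts. The outcome is not given here, so that run says nothing on how large a change the test could find. DESeq2 1.42.0, limma-voom (limma 3.58.1), other scalings and filters, a replicate block and leaving out each replicate were alternatives. Sites were searched in 3' UTRs of GENCODE transcripts. The 7 genes, the lists and the tests were chosen with earlier results of these data known. Genes named beside the 7 were, by a rule fixed with the lists, the 2 lowest and 2 highest fold changes of each list where none was called, the 2 reported targets on each side of the filter by total count, and the 2 genes closest to each of the 7, except 1 gene that is not reported here. Depth ranged from 4564010 to 13675127 counts, and intervals cover counting error only, since reads carried no molecular identifiers.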

Additional observations from a re-analysis of the deposited data

How the results depend on the processing

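Across 109 alternative values for the 7 genes, none passed the threshold and 107 kept their direction. The exceptions were Ifngr1 without control replicate 3 (log2 fold change 1.0, range without each replicate -3.66 to 1.0) and Fadd without 8 h replicate 3 (-0.98, range -0.98 to 1.09). limma-voom and the replicate block moved 3 of the 7 by over 1.5 times, Ifngr1 to -0.65 and -1.02, Fadd to 0.19 and 0.23, and Socs1 to 2.01 and 2.11. edgeR called 0 accessions under RLE, upper-quartile or no scaling, without a filter, with a mean of at least 5 CPM and in the newer quasi-likelihood form, limma-voom called 0, and without each replicate the count was 0 to 0. DESeq2 called 399 accessions and 1 of the reported targets. Its independent filtering was set to the 0.05 threshold after a first count had been seen: at the default, an alternative chosen after seeing the data, it called 388 accessions, 1 reported target and 0 of the 7 genes. The reported-target list had 19 of 30 lower genes with the replicate block and 16 to 23 without each replicate. The list's count of lower genes and its median were also added after seeing the data. The fit with the replicate block called 0 accessions, with 267 at an unadjusted p under 0.05. Deviations of same-numbered libraries correlated at -0.0107, 0.0151 and -0.0039, so the numbers were not taken as pairs. With replicate 3 of the controls left out, Socs1 reached 3.01 and Maf -0.31. The number of the 7 genes with a seed match was 4 for 8mers and 7mer-m8 matches only, 6 with 6mers counted and 5 in the shortest annotated 3' UTR. Where a fit left out a library, the filter was run again. A mean of at least 5 CPM removed Peli1, Tab2 and Maf. Counts of 4 to 40 for Maf at 8 h limit its precision.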
